A study of Rattus norvegicus with 4 samples.

Results

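Complement is a cascade of secreted proteases and their targets that marks microbes, immune complexes and dying cells. In the classical pathway the recognition molecule C1q, built of A, B and C chains, binds its target and activates the proteases C1r and C1s, which then cut C4 and C2. The fragments form an enzyme that cleaves C3, the point at which the classical, lectin and alternative routes meet. In the alternative route factor D, encoded by Cfd, cuts factor B, the counterpart of C2. The C1 inhibitor, encoded by Serping1, is a serpin that inactivates C1r and C1s. In many tissues macrophages are a main source of C1q, while C3 is made largely by the liver. The 9 genes described here are C1qa, C1qb, C1qc, C1r, C1s, Serping1, C2, C3 and Cfd. They were taken from the expression table by symbol, and each symbol had 1 row, so they are 9 of the 16580 gene symbols in a table of 22861 loci.

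Left ventricle RNA was compared between groups of male Sprague Dawley rats, all of which had most of their kidney tissue removed by 5/6 nephrectomy (5/6Nx) at 10 weeks of age. The anti-miR-21 group received a locked nucleic acid (LNA) inhibitor of miR-21-5p, and the anti-scr group a scrambled LNA. Both were infused into the jugular vein at 1 mg/kg on 3 days in week 1 and on 3 days in week 4 after surgery, with a 0.4% Dyets chow throughout, and hearts were taken in week 7. Each group had 2 libraries, and each library pooled RNA of 2 to 3 rats, so individual animals cannot be seen, and the labels do not say whether pools share rats. Rats without nephrectomy were not analysed here, and these libraries did not measure mature miR-21-5p. The mature rat sequence, from RefSeq on GRCr8 (chr10:71902653-71902674, minus strand), is shown because it is what the LNA was made to block. Capitals mark the seed, bases 2 to 8, through which a miRNA chiefly pairs with its targets.
rno-miR-21-5p: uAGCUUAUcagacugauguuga

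The libraries held 47826514 to 54952098 reads, of which 94% to 94.4% mapped. Expression was deposited as FPKM, a fragment count scaled to transcript length and library size, with 1 value per locus and group. No value per library was given, so no standard deviation could be computed, and replicate error enters only through the p-value and the q-value (the p-value adjusted over all tested loci) in the authors' deposited table. Those p-values measure at most the spread between pools, which may be technical. Folds are log2 of anti-miR-21 FPKM over anti-scr FPKM, positions of measured loci are on rn5, and a gene was called at a deposited q under 0.05. Ventricular muscle genes were among the most abundant, with Myl2, the ventricular regulatory light chain, at 30217 FPKM with anti-miR-21 and 39354 FPKM with anti-scr.

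None of the 9 complement genes passed the test. Of the 8 tested members, 0 had a q under 0.05 in the authors' deposited table, against 0.815% of all 12876 tested loci (0.186% higher and 0.629% lower), and their q ranged from 0.790 to 0.995. At an unadjusted p under 0.05 the count was also 0 of 8, against 9.3% of all tested loci. By value, 5 members were higher and 4 lower with anti-miR-21, and 53.3% of the 12942 expressed loci (mean FPKM of the groups 1 or more) were higher. The median log2 fold was 0.01 for the members and 0.03 for the expressed loci. Summed over the members, the level was 415.5 FPKM with anti-miR-21 and 407.0 FPKM with anti-scr. In whole tissue, fewer cells of a type and less RNA per cell cannot be told apart.

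**Figure D1:**
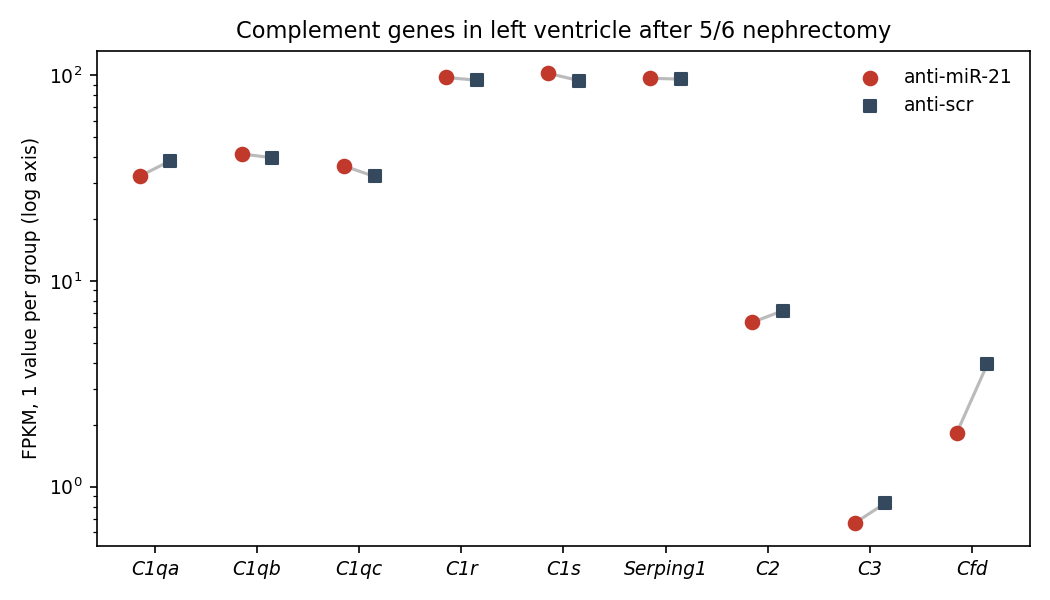
FPKM of the 9 complement genes on a log axis, with 1 point per group (circles, anti-miR-21; squares, anti-scr) and no error bar because no value per library was given. C1r, C1s and Serping1 lie between 94.2 and 102.3 FPKM and the C1q chains between 32.2 and 41.5 FPKM in both groups, while Cfd stands at 1.83 FPKM with anti-miR-21 and 3.94 FPKM with anti-scr.

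The C1q chains formed 1 tight block of levels. C1qa had 32.3 FPKM with anti-miR-21 and 38.4 FPKM with anti-scr, C1qb had 41.5 FPKM with anti-miR-21 and 39.7 FPKM with anti-scr, and C1qc had 36.3 FPKM with anti-miR-21 and 32.2 FPKM with anti-scr. C1qa was thus lower in value, and C1qb and C1qc higher. Summed, the chains came to 110.0 FPKM with anti-miR-21 and 110.3 FPKM with anti-scr, a log2 fold of -0.00. With anti-miR-21, C1qa gave 29.3% of that sum, C1qb 37.7% and C1qc 33.0%. With anti-scr, C1qa gave 34.8%, C1qb 36.01% and C1qc 29.2%. The log2 folds were -0.25 for C1qa, 0.06 for C1qb and 0.17 for C1qc. The deposited p for C1qa was 0.261 in the authors' deposited table, the lowest of the tested members, and q was 0.790. C1qb and C1qc had a p of 0.780 and 0.455 in the authors' deposited table.

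The chain genes lie side by side on chromosome 5, within 17663 bases, in the order C1qb (chr5:159008938-159014492), C1qc (chr5:159017514-159022316) and C1qa (chr5:159023752-159026600). Among all 22861 loci their mean levels stood at percentiles 88.4 to 89.9. RefSeq promoter windows, running 250 bases before to 50 after the start, were found for 5 of the 9 members (C1qa, C1qb, C1r, C3 and Cfd). The windows of the neighbouring C1qa and C1qb are printed because their genes had nearly equal levels and folds of opposite sign. The windows of C1r, among the most abundant members, and Cfd, the member with the largest fold, are set beside them. Sequences are on GRCr8, the minus strand for C1qa (chr5:154419884-154420183), C1qb (chr5:154407778-154408077) and Cfd (chr7:10465447-10465746), and the plus strand for C1r (chr4:159098763-159099062). Capitals mark GAGGAA on either strand, the core bound by PU.1, a transcription factor of macrophages and other blood cells.
C1qa: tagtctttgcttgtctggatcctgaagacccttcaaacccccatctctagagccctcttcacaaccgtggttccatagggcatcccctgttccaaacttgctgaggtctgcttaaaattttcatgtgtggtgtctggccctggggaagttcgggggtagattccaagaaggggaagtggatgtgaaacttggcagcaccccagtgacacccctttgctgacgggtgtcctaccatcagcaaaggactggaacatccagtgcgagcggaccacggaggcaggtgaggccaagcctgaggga
C1qb: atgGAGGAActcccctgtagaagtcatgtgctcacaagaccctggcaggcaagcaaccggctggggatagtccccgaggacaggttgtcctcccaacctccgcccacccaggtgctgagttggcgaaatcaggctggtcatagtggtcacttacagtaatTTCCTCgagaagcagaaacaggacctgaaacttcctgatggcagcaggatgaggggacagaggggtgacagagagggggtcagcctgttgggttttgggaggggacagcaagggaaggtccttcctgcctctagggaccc
C1r: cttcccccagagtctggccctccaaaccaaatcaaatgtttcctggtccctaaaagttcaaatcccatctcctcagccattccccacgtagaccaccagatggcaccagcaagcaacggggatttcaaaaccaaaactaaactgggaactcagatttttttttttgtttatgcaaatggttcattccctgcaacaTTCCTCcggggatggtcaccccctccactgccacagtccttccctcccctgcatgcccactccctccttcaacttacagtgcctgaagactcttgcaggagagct
Cfd: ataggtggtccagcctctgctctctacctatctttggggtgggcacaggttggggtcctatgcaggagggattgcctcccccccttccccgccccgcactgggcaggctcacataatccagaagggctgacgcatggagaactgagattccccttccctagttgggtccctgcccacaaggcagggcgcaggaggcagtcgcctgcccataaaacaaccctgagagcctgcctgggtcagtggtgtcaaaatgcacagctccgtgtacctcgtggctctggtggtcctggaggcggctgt

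The C1qb window held GAGGAA 2 times, starting at positions -247 and -90 relative to the start site, and the C1r window 1 time, at -55. The windows of C1qa, Cfd and C3 held none. Of 33469 promoter windows of the same length, 27.6% held this motif on either strand. The STAT dimer motif TTCNNNGAA, present in 8.87% of windows, occurred 1 time, in C1qa. A loose NF-kB pattern, with any base allowed in its middle, was present in 19.3% of windows. It occurred 3 times in C1qb, with 2 of these matches overlapping on opposite strands, and 1 time in C3. The pattern is looser than the NF-kB consensus, so these matches are not shown to be consensus sites. The C/EBP motif TTNNGNAA, present in 41.3%, occurred 2 times in C1r and 3 times in C3, with 2 of the C3 matches at the same bases on opposite strands. The interferon-stimulated element, also searched on both strands, was in none of the 5 windows and in 3.92% of all. Base composition spanned 50.3% GC in C1r to 61.3% GC in Cfd. Each match is a match of letters only.

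The C1 proteases and their inhibitor were the most abundant members, at nearly 1 level. C1r, which cuts and activates C1s, had 97.6 FPKM with anti-miR-21 and 94.7 FPKM with anti-scr (log2 fold 0.04; chr4:224144484-224155321). C1s, which cuts C4 and C2, had 102.3 FPKM with anti-miR-21 and 94.2 FPKM with anti-scr (0.12; chr4:224162095-224174100). Serping1 had 96.7 FPKM with anti-miR-21 and 95.8 FPKM with anti-scr (0.01; chr3:78678770-78727222, a position it shares with Ube2l6). Their mean levels stood at percentiles 95.0 to 95.2 of all loci. In the authors' deposited table the p was 0.811 for C1r, 0.530 for C1s and 0.949 for Serping1, and the q of these genes lay between 0.920 and 0.995. With log2 folds recentred on the median of the expressed loci, Serping1 was at -0.01, so its sign is not fixed.

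The proportions of these transcripts can be set side by side. The ratio of C1r to C1s was 0.954 with anti-miR-21 and 1.00 with anti-scr. Serping1 over the sum of C1r and C1s was 0.484 with anti-miR-21 and 0.507 with anti-scr. The mean protease level was 2.73 times the mean C1q chain level with anti-miR-21 and 2.57 times with anti-scr. With 1 value per group, no error can be attached to these ratios.

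C2, C3 and Cfd were the least abundant members, and each was lower in value with anti-miR-21. C2, the protease subunit of the classical C3-cleaving enzyme, had 6.30 FPKM with anti-miR-21 and 7.18 FPKM with anti-scr (log2 fold -0.19; chr20:6622137-6641139), with a p of 0.479 and a q of 0.904 in the authors' deposited table. C3 had 0.665 FPKM with anti-miR-21 and 0.832 FPKM with anti-scr (-0.32; chr9:8728464-8754412) and was not tested by the authors. The level of C3, per length, was therefore far under that of the enzymes that lead to it. C1s over C3 was 154 with anti-miR-21 and 113 with anti-scr. Summed, C2, C3 and Cfd gave 8.79 FPKM with anti-miR-21 and 11.96 FPKM with anti-scr, most of that difference from Cfd.

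Cfd encodes factor D, the protease that cuts factor B, also known as adipsin because fat cells release it. It had 1.83 FPKM with anti-miR-21 and 3.94 FPKM with anti-scr, a log2 fold of -1.11 or 0.463 times the anti-scr level. Its p was 0.583 and its q 0.938 in the authors' deposited table, so this difference did not pass. Of the 2411 tested loci whose mean level lay within 1.5 times that of Cfd, 97.2% had a smaller fold in either direction. Among the 2411, 67 other loci had a fold at least as large, and 33 of them had a p under 0.05 in the authors' deposited table. For 3 of the 67, the p was as large as that of Cfd or larger. The deposited position of Cfd (chr7:12710937-12963971) spans 253035 bases and is given identically for 16 loci, so it is not the position of Cfd alone. How fragments were divided among these loci is not given in the sources used here, so the FPKM and the fold may not be of Cfd alone. Of the 15 other loci, 7 were expressed, and all 7 were lower in value with anti-miR-21, by log2 folds of -1.43 to -0.13 (median -0.63). None of these 7 had a p under 0.05 in the authors' deposited table.

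**Figure D2:**
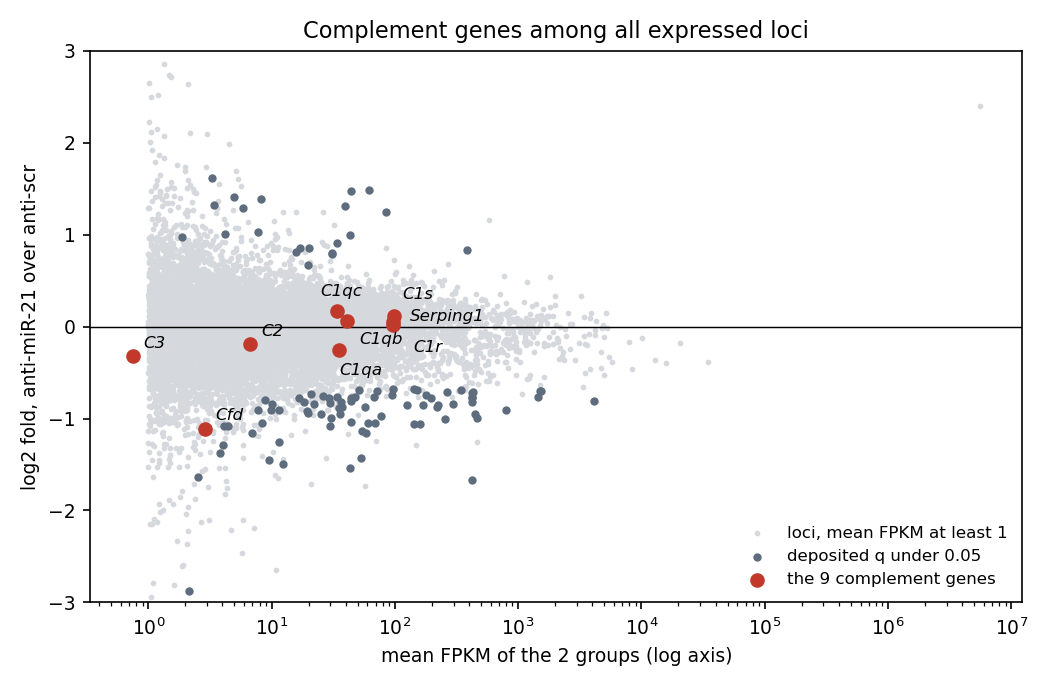
Log2 fold of anti-miR-21 over anti-scr against mean FPKM (log axis) for the 12942 expressed loci (grey), those with a deposited q under 0.05 (dark) and the 9 complement genes (red, C3 lying below 1 FPKM); 2 loci fall outside the fold range of -3 to 3. Of the members, 8 sit between -0.32 and 0.17 and Cfd at -1.11, and none is called.

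How small a difference the deposited test passed depended on the level. Among tested loci within 1.5 times the level of a C1q chain (1475 to 1642 loci), the smallest log2 fold, of either sign, with a p under 0.05 in the authors' deposited table was 0.37, and the smallest with a q under 0.05 was 0.69. Near the level of C1r, C1s and Serping1 (838 to 850 loci) those limits were 0.37 and 0.67. Near C2 (2710 loci) they were 0.40 and 0.80, and near Cfd 0.46 and 1.01. Folds of the size seen for the C1q chains, the proteases, the inhibitor and C2 thus lay under the smallest fold that passed at their level. A p that misses the threshold does not show that their levels were equal.

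Around the members, the rest of the complement system was read from a list of 44 other genes, of which 40 had a row, at 39 loci. At 2 of these the value could not be assigned because the locus also held genes outside the list, namely Cfp (properdin) and Cd59. Of the remaining 37 loci, 6 were listed at 0 in both groups and 3 at 0 in 1 group. The other 28 had 18 loci higher and 10 lower in value, with a median log2 fold of 0.21. Of the 20 tested, 0 were called in the authors' deposited table, while an unadjusted p under 0.05 was reached by 3 loci that were higher and by 0 that were lower. That threshold was passed upward by 3.18% and downward by 6.11% of the 12876 tested loci. Among the 19 expressed loci, 14 were higher and 5 lower, with a median of 0.24.

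**Figure D3:**
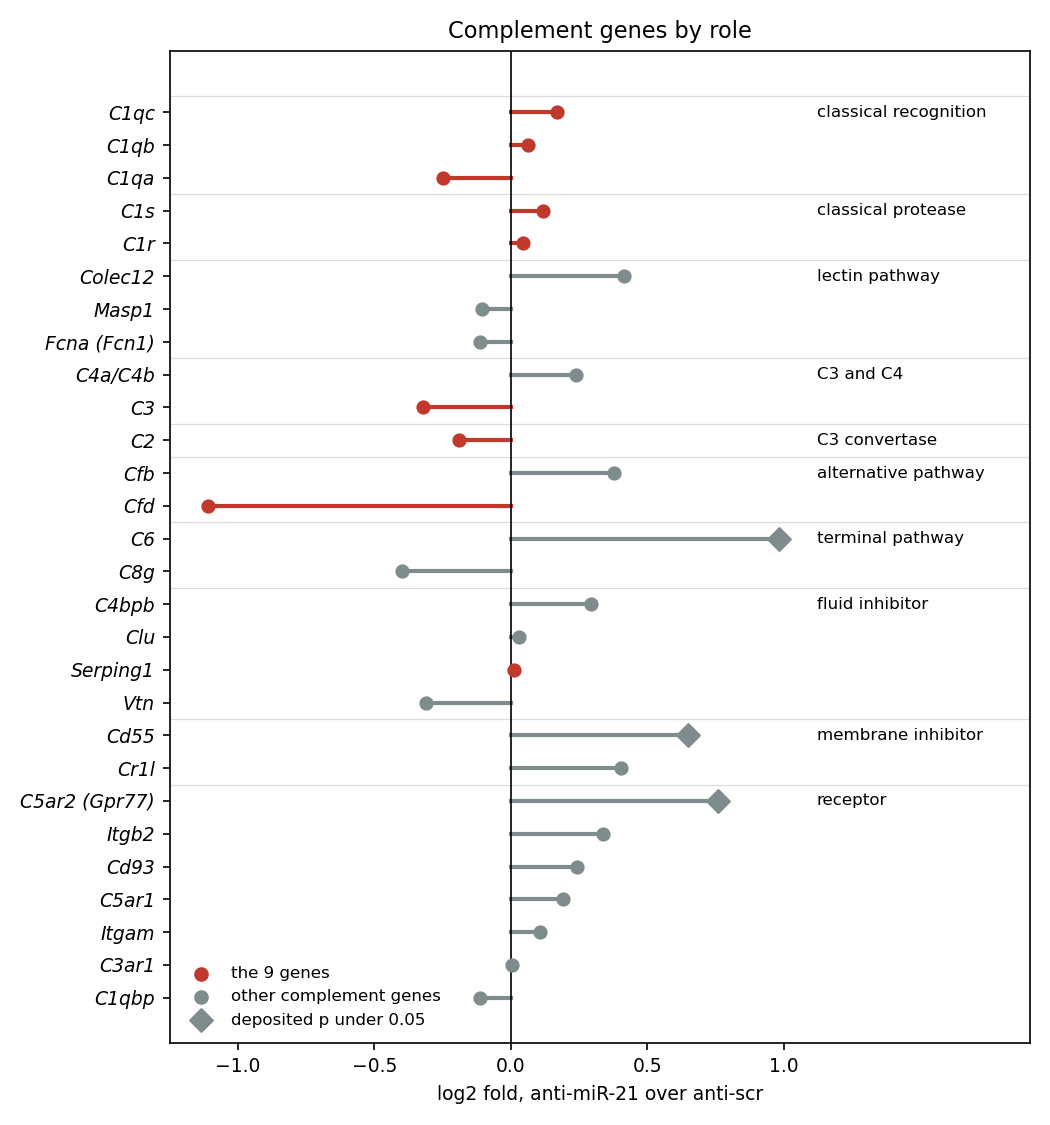
Log2 fold of anti-miR-21 over anti-scr for the 9 complement genes (red) and the other expressed complement loci (grey), ordered by role; diamonds mark a p under 0.05 in the authors' deposited table. The diamonds are C6, Cd55 and C5ar2, all on the positive side, and no red point is a diamond.

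Partners of the members at the start of the cascade differed in sign, and none passed the test. The locus that holds C4a and C4b, the substrate of C1s, had 26.3 FPKM with anti-miR-21 and 22.3 FPKM with anti-scr (log2 fold 0.24), and its near-identical genes cannot be separated. Masp1, a protease of the lectin pathway, had 125.6 FPKM with anti-miR-21 and 135.1 FPKM with anti-scr (-0.11), a level above every member. Its deposited position is given for 2 loci, as are those of Clu, Cr1l and C8g, and that of Itgb2 for 3. These values may therefore not be of 1 gene alone. Fcna, a ficolin of the lectin pathway listed as Fcn1, had 7.35 FPKM with anti-miR-21 and 7.95 FPKM with anti-scr (-0.11). Colec12, a scavenger receptor with a collectin domain, had 12.8 FPKM with anti-miR-21 and 9.60 FPKM with anti-scr (0.41). Cfb, which encodes the factor B that Cfd cuts and lies next to C2 within 25135 bases, had 8.72 FPKM with anti-miR-21 and 6.71 FPKM with anti-scr (0.38), with a p of 0.115 in the authors' deposited table. C2 and Cfb, close relatives in sequence and function, thus had folds of opposite sign, and neither passed the test.

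Among genes of the terminal pathway, C6, a subunit of the membrane attack complex, had 4.74 FPKM with anti-miR-21 and 2.40 FPKM with anti-scr. Its log2 fold of 0.98 had a p of 0.00075 and a q of 0.0721 in the authors' deposited table, the lowest q of the list, and 1.31% of all tested loci had a q under 0.10. C8g, another subunit gene, had 1.06 FPKM with anti-miR-21 and 1.40 FPKM with anti-scr (-0.40). C8a and C8b were listed at 0 in both groups, and C9 was at 0.0594 FPKM with anti-miR-21 and 0.0274 FPKM with anti-scr.

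Of the expressed inhibitors other than Serping1, 2 of 3 secreted ones and 2 of 2 on membranes were higher in value. Cd55, which speeds the decay of C3-cleaving enzymes on cell surfaces, had 11.3 FPKM with anti-miR-21 and 7.22 FPKM with anti-scr (log2 fold 0.65), with a p of 0.00715 and a q of 0.240 in the authors' deposited table. Cr1l, the rodent membrane inhibitor also called Crry, had 58.5 FPKM with anti-miR-21 and 44.3 FPKM with anti-scr (0.40). C4bpb, a chain of the C4b-binding protein, had 5.00 FPKM with anti-miR-21 and 4.08 FPKM with anti-scr (0.29). Clu, clusterin, was the most abundant gene of the list, with 1065 FPKM with anti-miR-21 and 1042 FPKM with anti-scr (0.03). Vtn, vitronectin, was lower in value, at 25.2 FPKM with anti-miR-21 and 31.3 FPKM with anti-scr (-0.31).

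Receptors for complement fragments were at low to moderate levels. C5ar2, listed as Gpr77, the second receptor for C5a, had 3.41 FPKM with anti-miR-21 and 2.02 FPKM with anti-scr (log2 fold 0.76), with a p of 0.0101 and a q of 0.285 in the authors' deposited table. C5ar1 had 9.46 FPKM with anti-miR-21 and 8.29 FPKM with anti-scr (0.19). C3ar1, the C3a receptor, had 1.81 FPKM with anti-miR-21 and 1.80 FPKM with anti-scr (0.01). The chains of complement receptor 3, Itgam and Itgb2, had log2 folds of 0.11 and 0.34. Cd93, once thought to be a C1q receptor, had 14.3 FPKM with anti-miR-21 and 12.1 FPKM with anti-scr (0.24). C1qbp, a mostly mitochondrial protein that binds C1q, had 347.4 FPKM with anti-miR-21 and 375.5 FPKM with anti-scr (-0.11).

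Markers of macrophages and fibroblasts, cell types that make complement, were mostly higher in value with anti-miR-21. Of the 21 expressed macrophage markers, 18 were higher and 3 lower, with a median log2 fold of 0.38. Calls numbered 0 of 21 in the authors' deposited table, where 6 of those that were higher, and 0 of those that were lower, had an unadjusted p under 0.05, against 3.18% higher and 6.11% lower over all tested loci. The macrophage list summed to 737.9 FPKM with anti-miR-21 and 551.3 FPKM with anti-scr. Lyz2, lysozyme, had 250.7 FPKM with anti-miR-21 and 165.4 FPKM with anti-scr (0.60), and Lgals3, galectin-3, had 85.5 FPKM with anti-miR-21 and 73.1 FPKM with anti-scr (0.22). The C1q sum had a log2 fold of -0.00 beside these, and the difference between that sum and the marker list was not tested. Of the 13 expressed fibroblast markers, 11 were higher and 2 lower (median 0.27), with sums of 3371 FPKM with anti-miR-21 and 2818 FPKM with anti-scr. Dcn, decorin, had 1230 FPKM with anti-miR-21 and 1023 FPKM with anti-scr (0.27), and Col3a1, collagen III, had 915.5 FPKM with anti-miR-21 and 627.0 FPKM with anti-scr (0.55). The 1 called fibroblast marker was Postn, periostin, which rose to 55.8 FPKM with anti-miR-21, against 22.4 FPKM with anti-scr. Over all tested loci 0.186% were called higher. Gsn, gelsolin, was lower, at 306.4 FPKM with anti-miR-21 and 447.3 FPKM with anti-scr (-0.55). Its p was 0.0047 in the authors' deposited table. By an unadjusted p under 0.05 there, 3 fibroblast markers were higher and 1 lower.

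**Figure D4:**
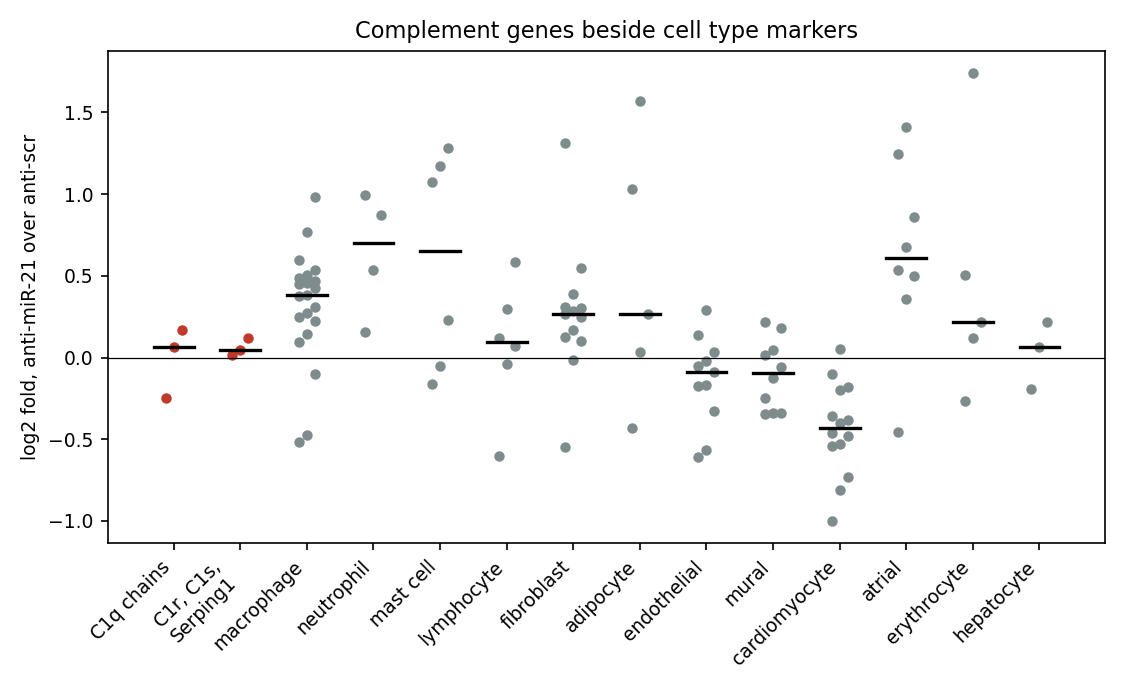
Log2 fold of anti-miR-21 over anti-scr for the C1q chains, for C1r, C1s and Serping1 (red) and for markers of 12 cell types, where expressed (grey), with a bar at each median. The medians are 0.38 for macrophage markers, 0.27 for fibroblast markers and -0.43 for cardiomyocyte markers, and the red points lie between -0.25 and 0.17.

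Muscle markers were mostly lower in value. Of the 14 cardiomyocyte loci, 13 were lower and 1 higher with anti-miR-21 (median log2 fold -0.43), and the list summed to 95002 FPKM with anti-miR-21 and 122691 FPKM with anti-scr. Actc1, cardiac actin, had 19395 FPKM with anti-miR-21 and 21969 FPKM with anti-scr (-0.18), and the 2 called loci were Myl3 (-0.81) and Ckm (-0.998), which fell. Of the 8 expressed atrial markers, 7 were higher and 1 lower (median 0.61), with sums of 2824 FPKM with anti-miR-21 and 1887 FPKM with anti-scr. Nppa, natriuretic peptide A, had 2165 FPKM with anti-miR-21 and 1492 FPKM with anti-scr (0.54), and Myl7, the atrial light chain, had 335.3 FPKM with anti-miR-21 and 209.7 FPKM with anti-scr (0.68). Of the 10 atrial loci with a row, 3 were called, Sln, Mybphl and Bmp10, and all rose. Bmp10 was not among the 8 expressed ones, at 1.38 FPKM with anti-miR-21 and 0.106 FPKM with anti-scr. Over all tested loci, 0.186% were called higher and 0.629% lower.

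Of 10 neutrophil loci 4 were expressed, and all 4 were higher in value (median log2 fold 0.70). The list summed to 113.3 FPKM with anti-miR-21 and 64.95 FPKM with anti-scr. S100a9 was the 1 called neutrophil gene and rose to 58.1 FPKM with anti-miR-21, against 29.2 FPKM with anti-scr (0.99), with a q of 0.0318 in the authors' deposited table. S100a8, its partner, had 36.8 FPKM with anti-miR-21 and 20.1 FPKM with anti-scr (0.87). These 2 had an unadjusted p under 0.05 in the authors' deposited table, and the other expressed neutrophil loci did not. Over all tested loci 3.18% had such a p and were higher, and 0.186% were called higher. Elane and Mpo, also neutrophil genes of this list, stood at 0 in both groups, and Elane is given the same position as Cfd. Mast cell markers, with 4 higher and 2 lower (median 0.65), summed to 23.1 FPKM with anti-miR-21 and 15.2 FPKM with anti-scr and were led by Cpa3 (1.07) and Cma1 (1.28). Lymphocyte markers (Cd4, Klrd1), with 4 higher and 2 lower, summed to 34.5 FPKM with anti-miR-21 and 30.1 FPKM with anti-scr. Endothelial markers (Fabp4, Aqp1), with 3 higher and 8 lower, summed to 3461 FPKM with anti-miR-21 and 3452 FPKM with anti-scr. Most of that sum was Fabp4, at 2772 FPKM with anti-miR-21 and 2713 FPKM with anti-scr. By an unadjusted p under 0.05 in the authors' deposited table, 0 endothelial markers were higher and 2 lower. Mural markers (Rgs5, Abcc9), with 4 higher and 6 lower, summed to 901.9 FPKM with anti-miR-21 and 854.2 FPKM with anti-scr. Red cell markers (Hbb, Hba-a2), with 4 higher and 1 lower, summed to 2231 FPKM with anti-miR-21 and 2010 FPKM with anti-scr. The part of any of these lists in the complement levels was not tested.

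Liver and fat are the tissues known for C3 and Cfd. Of 9 hepatocyte markers 3 were expressed, 2 higher and 1 lower, and the list summed to 92.1 FPKM with anti-miR-21 and 92.5 FPKM with anti-scr, nearly all of it from Tf and Ttr. Tf, transferrin, whose locus holds another gene too, had 65.1 FPKM with anti-miR-21 and 62.3 FPKM with anti-scr, and Ttr, transthyretin, had 24.9 FPKM with anti-miR-21 and 28.5 FPKM with anti-scr. The defining liver genes were near 0, with Alb, albumin, at 0.0965 FPKM with anti-miR-21 and 0.0572 FPKM with anti-scr, and Apoa1 at 0.149 FPKM with anti-miR-21 and 0.0716 FPKM with anti-scr. Fga and Ahsg were under these levels, and Fgb was listed at 0 in both groups. The adipocyte list summed to 2803 FPKM with anti-miR-21 and 2736 FPKM with anti-scr, nearly all of it Fabp4, which endothelium also expresses (2772 FPKM with anti-miR-21 and 2713 FPKM with anti-scr). Pparg, a regulator of fat cell formation, had 8.72 FPKM with anti-miR-21 and 7.25 FPKM with anti-scr. Of 5 expressed adipocyte loci, 4 were higher and 1 lower with anti-miR-21. Among them, chosen after their values were seen, Adipoq, the fat cell hormone adiponectin, had 2.29 FPKM with anti-miR-21 and 0.772 FPKM with anti-scr (log2 fold 1.57). Car3, a carbonic anhydrase abundant in fat, was called and rose to 10.4 FPKM with anti-miR-21, against 5.09 FPKM with anti-scr (1.03), with a q of 0.0261 in the authors' deposited table. Lipe, a lipase of fat breakdown, was the 1 lower, with 6.46 FPKM with anti-miR-21 and 8.69 FPKM with anti-scr (-0.43). The part of fat cells in the Cfd value was not tested.

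The members differ in how crowded their chromosome neighbourhoods are. Within 500 kb of Cfd lay 56 named loci, and of the 30 expressed ones, 29 were lower in value with anti-miR-21 (median log2 fold -0.53). Of these, 6 were called in the authors' deposited table and fell, namely Uqcr11 (-0.82), Mbd3 (-0.91), Rps15 (-1.05), Ndufs7 (-1.43), Atp5d (-1.06) and Cdc34 (-0.77). Over all tested loci 0.629% were called lower, and of the 313 expressed named loci with 45 or more neighbours, 12 were called lower and 0 higher. The window was centred on the middle of the position that Cfd shares, and its 56 named loci include the 15 others with that position. Of those 15, the 7 expressed ones, all lower, are the loci described above with Cfd. The nearest named locus with a position of its own on one side, Polr2e, had 17.4 FPKM with anti-miR-21 and 24.3 FPKM with anti-scr (-0.48), and Prss57 on the other side was listed at 0 in both groups. Around C2, in the crowded complement region next to Cfb, 53 named loci lay within 500 kb, and 32 of 39 expressed ones were lower (median -0.42), with 0 called. Around C1r and C1s there were 28, with a median of -0.18 and 1 called, Gnb3, which fell to 24.5 FPKM with anti-miR-21, against 47.4 FPKM with anti-scr (-0.95), with a q of 0.0131 in the authors' deposited table.

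The C1q genes had 11 named loci within 500 kb, 6 of them expressed, with medians of -0.00 to 0.04 and 0 called. Serping1 had 23 and a median of 0.17, with 1 called, Timm10, which fell to 70.4 FPKM with anti-miR-21, against 117.7 FPKM with anti-scr (-0.74), with a q of 0.0318 in the authors' deposited table. The loci flanking Serping1, Mir3590 and Smtnl1, were at 0 or near it in both groups. C3 had 23 and a median of -0.17, with 0 called. The neighbours of each C1q gene include the other C1q chains, so each of their medians rests partly on the members themselves. C1r and C1s likewise count as neighbours of each other. Over all 9877 expressed named loci, the median fold was 0.09 for the 6136 with 0 to 14 neighbours, -0.12 for 2600 with 15 to 29, -0.24 for 828 with 30 to 44 and -0.35 for 313 with 45 or more. C2 and Cfd belong to the most crowded class, Cfd by a count that includes the loci given its position, and the C1q genes to the least crowded. The part of the neighbourhood in the folds of the members was not tested.

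**Figure D5:**
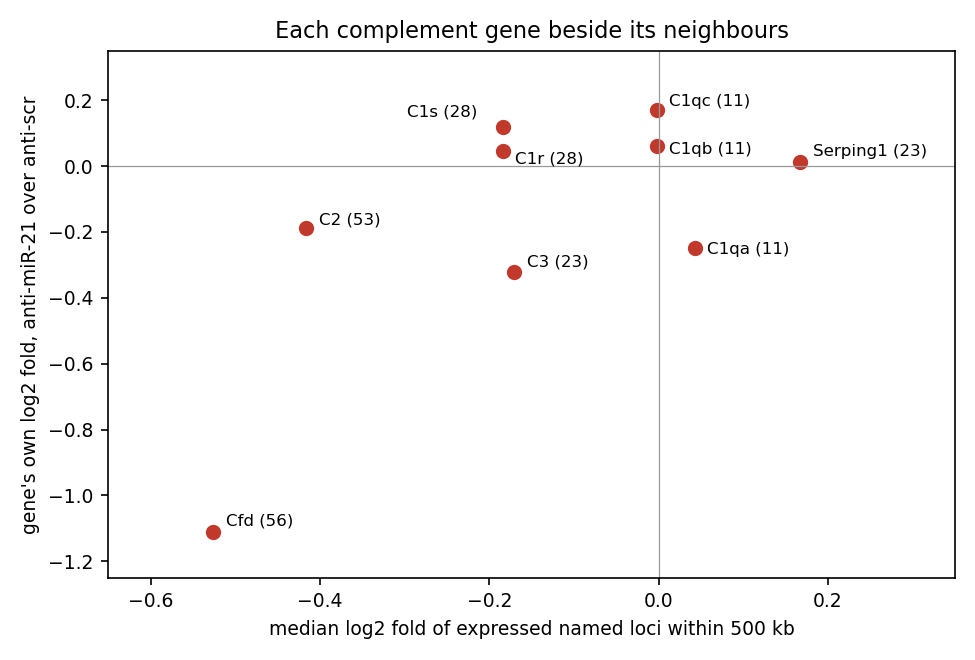
Log2 fold of each complement gene (vertical axis) against the median log2 fold of the expressed named loci within 500 kb (horizontal axis), with the number of named loci in that window in parentheses. Cfd, with 56 named neighbours, lies lowest on both axes, and the C1q genes, with 11, have neighbour medians near 0. Neighbours include other members in the window and, for Cfd, the 15 loci given its position.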

How the data were processed

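Whole-tissue RNA was sequenced from 4 pooled left ventricle libraries, 2 per group. Per the labels' protocols, libraries were made with the TruSeq Stranded Total RNA kit and read in pairs on an Illumina HiSeq. The submitters' processing notes name TopHat2 2.0.10, Cuffdiff, Cufflinks 2.0.10 and cutadapt, with build rn5. Which annotation and options applied is not given in the sources used here. FPKM values are scaled by length and library size, and how library size was set is not given. A shift of abundant transcripts may therefore have moved other values, which was not tested. The deposited reads per library are counts, and the percent mapped stands beside them in the authors' second table. The deposited p and q values are those of the authors, and the q equals a Benjamini-Hochberg adjustment over the 12876 tested loci to within 1e-06.

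In 97 rows with several gene names, none of them a member's, the cells were shifted and were realigned by their column pattern. In all 92 of these with a fold, the deposited fold then equalled the FPKM ratio within 0.002. Folds were computed here from FPKM without a pseudocount, using Python 3.11.15, pandas 2.3.3 and numpy 2.4.6, and the computation was tested on simulated data. Because values are per group, no model was fitted, as the design foresaw, and depth per locus is unknown. Genes named are the 9 members, other complement genes with a mean FPKM of 1 or more, the 2 most abundant markers per cell type list, called neighbours within 500 kb, and the loci flanking Cfd and Serping1. Outside this rule, C8a, C8b, C9, Elane, Mpo, Postn, Gsn, Myl3, Ckm, Sln, Mybphl, Bmp10, Adipoq, Car3, Lipe and the liver genes named beside Ttr were chosen after their values were seen. Members, lists, motifs and tests were chosen with earlier results of these data known. The comparison with loci of like level was added after seeing the data. Some complement genes are not reported here and enter no list or count of complement genes. Alternatives were other thresholds, filters, pseudocounts, recentring, summed loci and the mean.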

Additional observations from a re-analysis of the deposited data

How the results depend on the processing

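No paired analysis was possible because the table holds 1 value per group, and for the same reason leaving out a library could not be run. The count of called members was 0 under all 5 alternatives. No other count was possible, since the lowest member p in the authors' deposited table was 0.261 and an adjusted value cannot be lower. Of 27 recomputed member folds, 26 kept their sign, and the exception was Serping1, at -0.013 after recentring. Only recentring could change a sign, since each member had 1 row and adding 1 to both values keeps it. The median log2 fold of the members, 0.013, became -0.013 after recentring, -0.16 as a mean, 0.029 over members of 1 FPKM or more, and 0.045 over those of 5 FPKM or more. It was 0.029 both without Cfd and with the tested members only, which were added after seeing the data. The sign of that median is therefore not fixed. The mean differs from the median in sign, and Cfd has the largest fold. For the other complement genes, 1 was called at a q under 0.10 (C6; 1.31% of tested loci) and 3 at an unadjusted p under 0.05, against 0 at a q under 0.05. Their median of 0.21 became 0.19 after recentring, 0.019 with log2 of FPKM + 1, 0.031 with FPKM + 0.1, 0.24 over loci of 1 FPKM or more, and 0.0995 as a mean. It was 0.15 with loci shared with other genes, which was added after seeing the data. The pseudocount alternatives include genes listed at 0, which have no fold otherwise. C3 was not tested by the authors, and Cfd was the tested member with the lowest level. The part of level in the result for Cfd was not tested.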

Other observations

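The C1q chains share their globular head, the C1q domain, with a wider family of secreted proteins and short-chain collagens, which was listed after the data had been seen. Of 27 genes listed, 19 loci had a row and 10 were expressed, of which 6 were higher and 4 lower in value with anti-miR-21 (median log2 fold 0.14). Col8a1, a short-chain collagen of vessel walls, was the 1 called gene of this wider family, and is not among the complement genes described above. It rose to 25.7 FPKM with anti-miR-21, against 14.3 FPKM with anti-scr (log2 fold 0.85). Its q was 0.0131 in the authors' deposited table. Upward calls made up 0.186% of the 12876 loci with a test. C1qtnf9, a secreted C1q and TNF related protein, had 35.2 FPKM with anti-miR-21 and 41.2 FPKM with anti-scr (-0.23). Ptx3, a long pentraxin that can bind C1q, had 3.38 FPKM with anti-miR-21 and 1.20 FPKM with anti-scr (log2 fold 1.497), with a p of 0.174 and a q of 0.727 in the authors' deposited table.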
